A study of Sus scrofa with 9 samples.

Results

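The SLC25 genes encode the mitochondrial carriers, and their transcripts were measured in 9 porcine hearts of 3 groups. The family was taken as every row of the expression table whose gene symbol is SLC25A followed by a number. This gave 32 genes of the 25149 listed. A total of 25 of them reached at least 1 TPM (read counts divided by gene length and brought to the same total in each heart) in at least 3 hearts and were tested among 11782 genes. A further 16 of the 48 SLC25A symbols written down from general knowledge were not matched by symbol and were not analysed here, among them SLC25A6, SLC25A11, SLC25A18 and SLC25A42. No SLC25A gene passed the adjusted threshold in any of 3 comparisons, and its transcripts are therefore described mainly by their levels and by the spread between hearts.

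Mitochondrial carriers are small membrane proteins, most of them in the inner mitochondrial membrane, and each moves a particular set of solutes between the cytosol and the matrix. In the heart they carry ADP in and ATP out, bring in the phosphate used to make ATP, admit acylcarnitines for fatty acid oxidation and exchange aspartate for glutamate in the malate-aspartate shuttle. A few members sit elsewhere, such as SLC25A17 in peroxisomes and SLC25A46 in the outer mitochondrial membrane. All of them are made from nuclear genes and are imported into the organelle after translation.

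The hearts came from female American Yorkshire pigs aged 4 to 6 months, with 1 apex biopsy per heart. Simulated donation after circulatory death with 15 min of warm ischemia, systemic heparin and cold cardioplegia was common to all groups. Group 1 (NRP + HOPE 24 h, pigs 27, 28 and 30) had 60 min of normothermic regional perfusion (NRP, warm blood circulated inside the donor) and then 24 h of hypothermic oxygenated perfusion (HOPE) at 8 °C. Group 2 (NRP + SCS 2 h, pigs 24, 25 and 29) had the same NRP and then 2 h of static cold storage (SCS) at 4 °C. Group 3 (No NRP + HOPE 2 h, pigs 31, 33 and 34) was procured directly, without NRP, and had 2 h of HOPE at 8 °C. The HOPE perfusate contained donor red cells, and every heart was biopsied after 2 h of normothermic machine perfusion (NMP) on a circuit primed with donor blood. Between Group 1 and Group 2, storage method, storage time and storage temperature change at once. Group 2 and Group 3 differ in NRP, storage method and storage temperature, and Group 1 and Group 3 in NRP and storage time. Within each comparison these changes cannot be told apart. There was no heart without warm ischemia or without NMP among the samples compared.

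The table gives TPM and no read counts, so the sequencing depth is unknown and precision is shown by the spread between 3 hearts per group. The labels name the cell type as cardiomyocytes, but whole biopsies were sequenced. All 8 listed cardiomyocyte markers of 12 written passed the filter, and their summed level was 31413 to 60085 TPM per heart. The 8 listed endothelial markers summed to 301 to 717 TPM, so other cell types contributed RNA. In such bulk samples fewer cells of a type and less RNA per cell cannot be told apart. The 13 mitochondrially encoded genes held 38.2% of TPM in pig 30 and between 44.8% and 55.3% in the other hearts. Because TPM adds to a fixed total, a lower mitochondrially encoded share leaves more of it for nuclear genes.

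By level, SLC25A4, the ADP/ATP carrier of heart and muscle (also called ANT1), was the most abundant member, with a mean of 1854 TPM over the 9 hearts and rank 37 among all genes listed. SLC25A3, the phosphate carrier, followed with a mean of 669 TPM and rank 106. The next 6 members lay between 10 and 100 TPM. They were SLC25A5 (ANT2, the ADP/ATP carrier of dividing cells) at 57.8 TPM, SLC25A39 (glutathione) at 41.8, SLC25A25 (calcium-regulated exchange of ATP-magnesium for phosphate) at 36.6, SLC25A12 (aspartate and glutamate) at 24.1, SLC25A29 (basic amino acids) at 23.0 and SLC25A20 (carnitine and acylcarnitine) at 12.8. The other 17 tested members had means between 1 and 10 TPM. In all, 22 members were at 1 TPM or more in every heart.

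**Figure D1:**
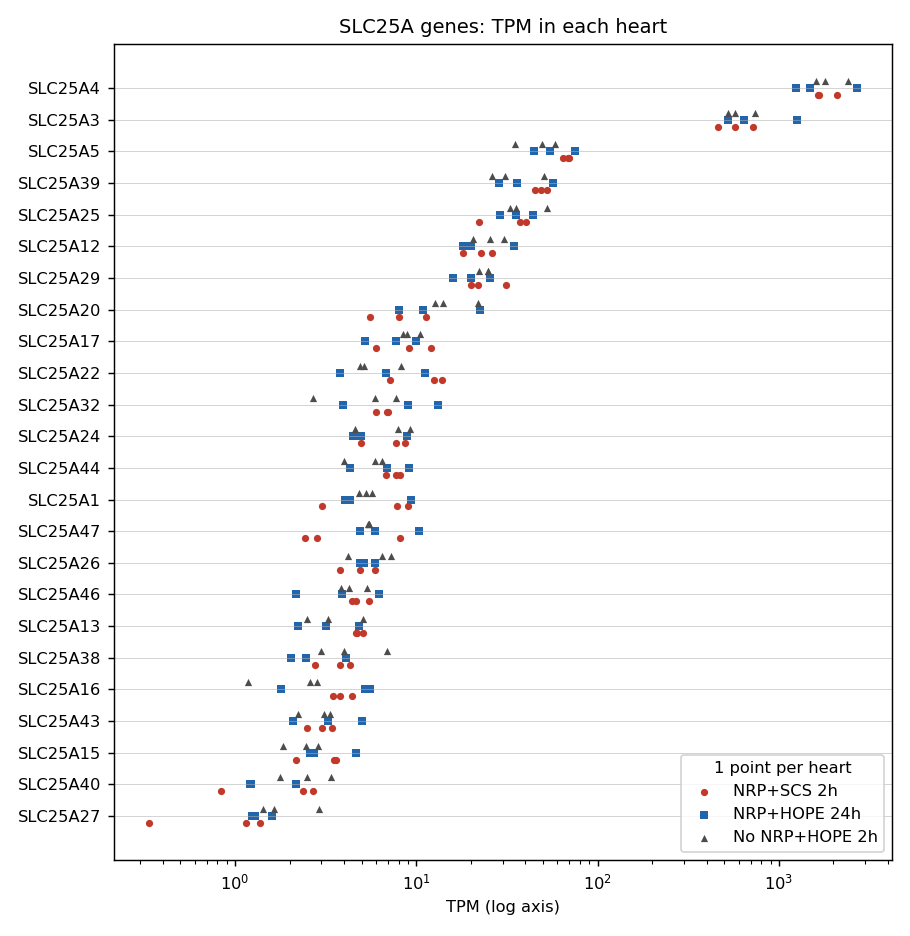
TPM of 24 tested SLC25A genes in each of the 9 hearts on a log axis, 1 point per heart, with genes ordered by their mean. SLC25A4 (mean 1854 TPM) and SLC25A3 (669 TPM) stand apart from the other 22 genes, whose means run from 57.8 TPM down to 1.44 TPM, and the symbols of the 3 groups are mixed for most genes.

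Near the limit of 1 TPM in 3 hearts, SLC25A27 had the lowest mean of the tested members (1.44 TPM). SLC25A14 (highest heart 1.34 TPM) and SLC25A2 (highest heart 2.05 TPM) reached 1 TPM in 2 hearts and were just outside. The other untested members were SLC25A35, SLC25A23, SLC25A31, SLC25A45 and SLC25A53. SLC25A35 was at most 0.484 TPM. SLC25A31, the ADP/ATP carrier of the testis, was listed at 0 in 8 hearts, and SLC25A23 was listed at 0 in 7. No tested member reached 1 TPM in the hearts of 1 group only.

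The spread between hearts of 1 group was wide. Averaged over the 3 groups, the coefficient of variation ran from 18.1% for SLC25A29 to 40.3% for SLC25A20. The highest heart exceeded the lowest by 1.90-fold for SLC25A12 and by 8.62-fold for SLC25A27, a member related to the uncoupling proteins.

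Summed over the 32 listed members, SLC25A transcripts made up 2437 TPM in pig 24, 3131 in pig 25 and 2486 in pig 29 (Group 2). The sums were 2235 TPM in pig 27, 2141 in pig 28 and 4322 in pig 30 (Group 1). They were 2352 TPM in pig 31, 2656 in pig 33 and 3460 in pig 34 (Group 3). Pig 30 was the highest heart and its 2 group mates were the lowest, so that the means of 2899 ± 1233 TPM (SD, n = 3) in Group 1, 2685 ± 387 in Group 2 and 2823 ± 572 in Group 3 differed by less than the spread within groups. Pig 30 had the highest TPM of the 9 hearts for 13 of the 25 tested members. It was also the heart with the lowest mitochondrially encoded share and with the highest summed cardiomyocyte (60085 TPM) and erythroid markers (430.4 TPM). Pig 28, the lowest in family sum, had the lowest cardiomyocyte sum (31413 TPM), and pigs 34 and 25 ranked next after pig 30 on both the family and the cardiomyocyte sum. The part of these measures in the family sums was not tested. When the mitochondrially encoded genes were left out and the remaining TPM brought back to the same total, pig 30 was highest for 4 members. Its family sum, 6993 rescaled TPM, was still the highest of the 9 hearts, ahead of pig 34 with 6269, and the group means were 5573 ± 1238, 5397 ± 741 and 5569.9 ± 605 rescaled TPM in Groups 1, 2 and 3.

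**Figure D2:**
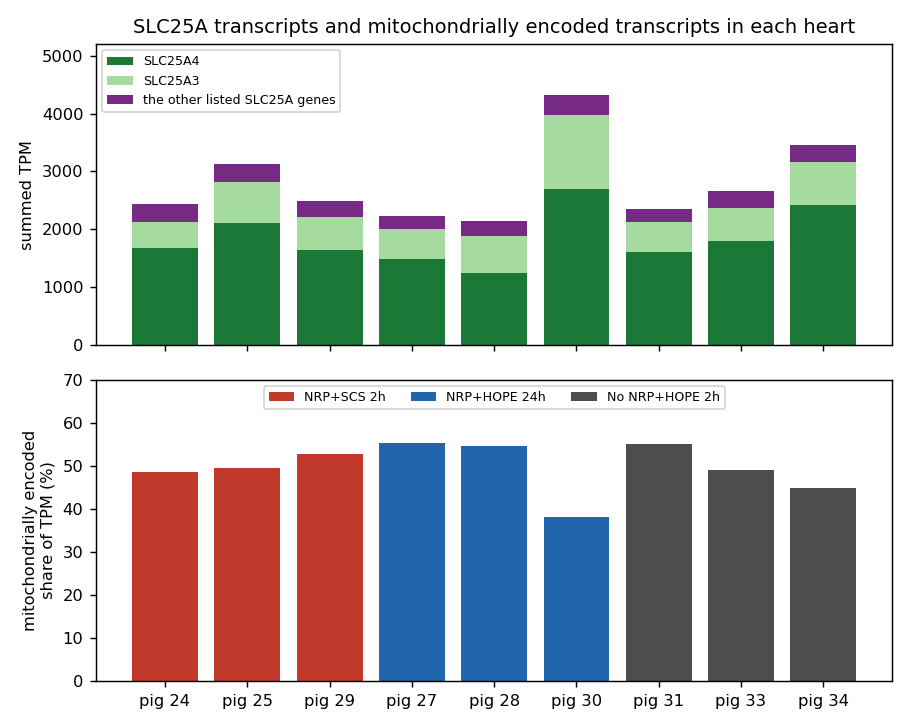
Summed TPM of the listed SLC25A genes in each heart, stacked as SLC25A4, SLC25A3 and the other members (above), and the share of TPM from 13 mitochondrially encoded genes in percent, coloured by group (below). Pig 30 has the highest SLC25A sum (4322 TPM) and the lowest mitochondrially encoded share (38.2%), and pigs 27 and 28 of the same group have the lowest sums.

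SLC25A4 and SLC25A3 together held 87.6% to 91.8% of the TPM summed over the listed members. This sum leaves out the SLC25A symbols that were not matched, such as SLC25A6 and SLC25A11. SLC25A4 held 58.2% to 66.6% of the sum in Group 1, which overlapped the 66.2% to 68.6% of Group 2, and 68.0% to 69.8% in Group 3. SLC25A3 made up 23.4%, 29.9% and 29.3% of the family in pigs 27, 28 and 30. It made up 18.9%, 23.1% and 23.0% in pigs 24, 25 and 29, and 22.3%, 21.5% and 21.4% in pigs 31, 33 and 34. The lowest Group 1 heart thus stood just above the highest of the other 6, with group means of 27.6 ± 3.57%, 21.7 ± 2.39% and 21.7 ± 0.496% (SD, n = 3). This share was looked at after the values were seen and was not tested. The other 30 members summed to 218 to 352 TPM in the 9 hearts.

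Group 1 against Group 2 asks how long perfused storage differs from short static storage after NRP. Of the 25 members, 11 were higher and 14 lower in Group 1 (35.9% of all genes were higher), with a median log2 fold change of -0.07, beside -0.12 over all genes tested. None passed limma's test at an adjusted p under 0.05 (0.0255% of all genes did) and none at an unadjusted p under 0.05 (background 4.97%). For none did the 3 hearts of a group lie entirely above or below the other 3 (background 9.82%). Adjusted p-values were 0.993 to 0.999 and the standard errors 0.28 to 0.42 on the log2 scale. The extremes were SLC25A22, a glutamate carrier, at -0.62 and SLC25A47, a carrier best known from the liver, at 0.64. All 8 tested endothelial markers were lower in Group 1, where their sum was 301 to 661 TPM against 576 to 662 TPM, and all 3 tested erythroid markers were higher, HBB at an unadjusted p under 0.05 in limma (sum of 4 listed genes 74.1 to 430.4 TPM against 72.3 to 136 TPM). Both tested neutrophil markers were lower, S100A9 also at an unadjusted p under 0.05 (sum of 5 listed genes 1.52 to 5.46 against 4.85 to 14.5 TPM). All 5 tested fibroblast markers were higher (sum 763 to 1116 against 669 to 982 TPM). Their part in the values of SLC25A genes was not tested.

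Group 3 was set against Group 2 by the study to look at NRP. Here 12 members were higher and 13 lower in Group 3 (42.2% of all genes were higher), with a median log2 fold change of -0.01, beside -0.07 over all genes. None passed the adjusted threshold (background 0.0509%). One member, SLC25A20, passed at an unadjusted p under 0.05 (background 7.22%). For 5 of 25 members (20.0%) the hearts of Groups 2 and 3 were fully separated, beside 14.7% of all genes, a share too near the background to be a result about the family. SLC25A20 and SLC25A27 were higher and SLC25A5, SLC25A16 and SLC25A44 were lower in every Group 3 heart.

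Markers of other cell types moved with this comparison too. All 3 tested erythroid markers were higher in Group 3, and the 4 listed of 8 written summed to 226 to 379 TPM against 72.3 to 136 TPM in Group 2. The erythroid markers (HBM, HBB and ALAS2) and the neutrophil marker S100A9 passed at an unadjusted p under 0.05 in limma. Both tested neutrophil markers were lower, and the 5 listed of 7 written summed to 0.799 to 4.26 TPM against 4.85 to 14.5 TPM, with CSF3R and MPO listed at 0 in all hearts. Of 5 tested fibroblast markers 4 were higher, and their sum was 1020.2 to 1150.4 TPM against 669 to 982 TPM. Of 8 tested markers each, 6 endothelial and 7 cardiomyocyte markers were lower, with sums that overlapped (325 to 717 against 576 to 662 TPM, and 37137 to 50787 against 37444 to 49641 TPM). Their part in the differences of SLC25A genes was not tested.

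Group 1 was also set against Group 3, a pair that the study did not list and that shares its hearts with the comparisons above. There were 12 members higher and 13 lower in Group 1 (46.1% of all genes were higher), with a median log2 fold change of -0.07, beside -0.03 over all genes. None passed the adjusted threshold (background 0.0509%). At an unadjusted p under 0.05 there was 1 member (background 6.01%), and for 1 member the hearts did not overlap (background 7.48%), neither a larger share than over all genes. The 4 listed smooth muscle markers summed to 214 to 387 TPM in Group 1 and 415 to 466 TPM in Group 3, with MYH11 listed at 0 in all hearts. Of the 3 tested, ACTA2 and TAGLN were lower in Group 1, ACTA2 at an unadjusted p under 0.05 in limma, and CNN1 was higher (log2 fold change 0.40, SE 0.44). Of 8 tested markers each, 6 endothelial markers were lower and 5 cardiomyocyte markers higher, with CLEC14A (lower) and ACTC1 (higher) at an unadjusted p under 0.05. All 3 tested erythroid markers were lower (sum 74.1 to 430.4 against 226 to 379 TPM), none at that threshold. Their part was not tested.

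Single hearts weighed heavily in these values. Of 41 SLC25A fold changes refitted with each heart left out in turn, 38 moved by over 1.5 times without at least 1 heart, and 10 of these changed sign. The range over the refits, with the heart whose removal gave each end, is therefore printed beside most members below.

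**Figure D3:**
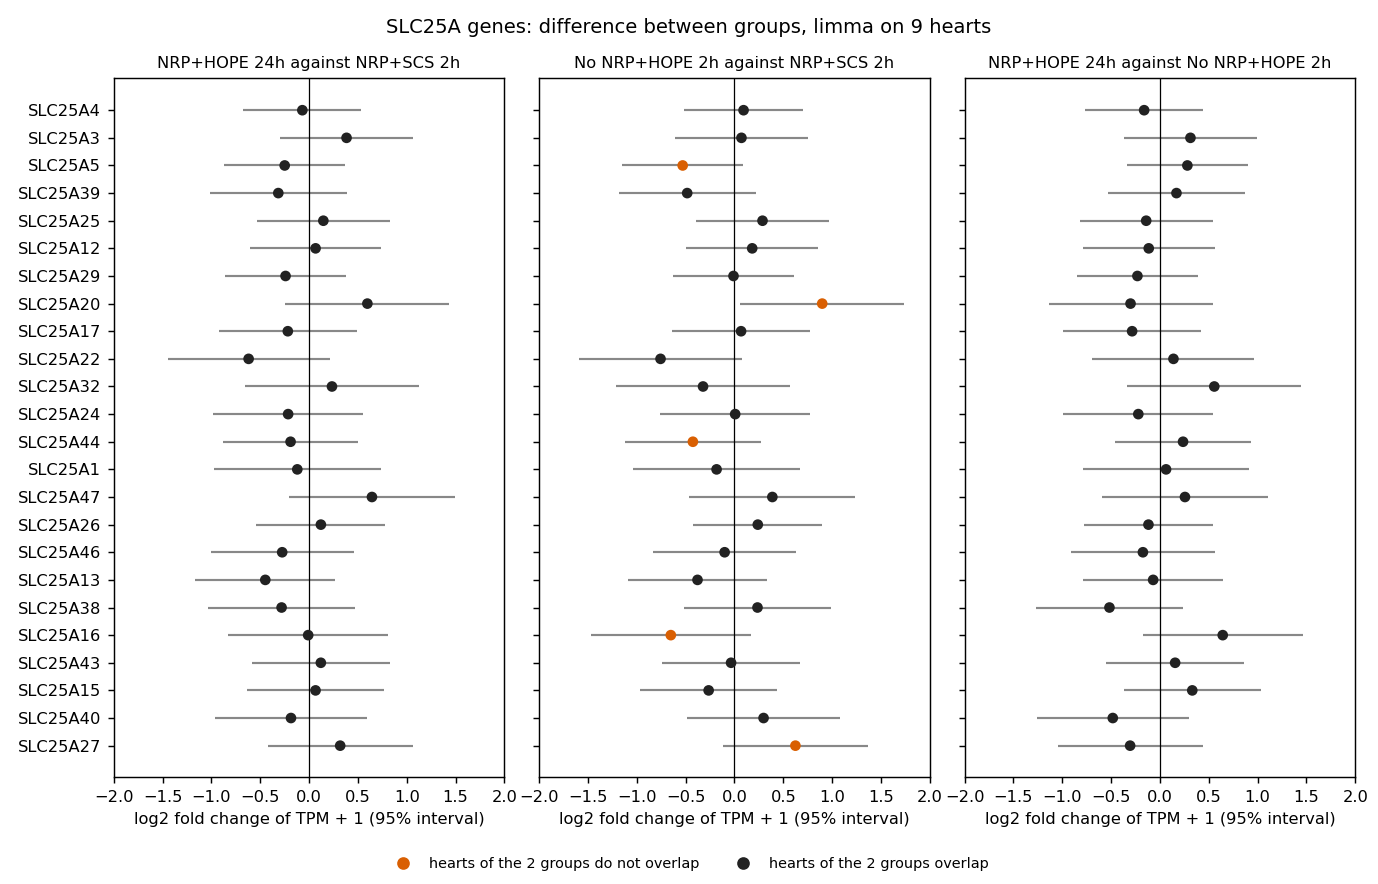
Log2 fold change of TPM + 1 with its 95% interval for 24 tested SLC25A genes in the 3 comparisons, from 1 limma fit of the 9 hearts, with genes ordered by mean level and genes whose hearts do not overlap in orange. Of the intervals drawn, only that of SLC25A20 in the middle panel excludes 0, and the gene did not pass after adjustment (adjusted p = 0.666).

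Of the 5 tested adenine nucleotide and phosphate carriers, 2 were higher and 3 lower in Group 1 against Group 2, and 4 were higher and 1 lower in Group 3 against Group 2. SLC25A4 was at 1489, 1247 and 2702 TPM in pigs 27, 28 and 30, at 1673, 2102 and 1646 TPM in pigs 24, 25 and 29, and at 1609.8, 1805 and 2416 TPM in pigs 31, 33 and 34. The groups overlapped broadly and Group 1 held both the highest and the lowest heart. The log2 fold changes were -0.07 against Group 2 (SE 0.28, 95% interval -0.67 to 0.54) in Group 1 and 0.09 (SE 0.28) in Group 3. The first changed sign under median-of-ratios scaling (0.08) and without pig 25, 27 or 28 (0.05, 0.03 and 0.16), and the second without pig 34 (-0.07).

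SLC25A3 was at 524, 639.8 and 1268 TPM in pigs 27, 28 and 30. It was at 461, 723 and 573 TPM in pigs 24, 25 and 29 and at 524, 572 and 739 TPM in pigs 31, 33 and 34. Only pig 30 stood clear of the range of the other hearts. The log2 fold change of Group 1 against Group 2 was 0.38 (SE 0.31, adjusted p = 0.993 in limma) and ran from 0.0076 without pig 30 to 0.64 without pig 27. Under median-of-ratios scaling, which centres each heart on its typical gene, it was 0.53.

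SLC25A5 was at 64.4, 69.95 and 68.9 TPM in Group 2 (pigs 24, 25 and 29), the tightest group of the 3. In Group 3 it was at 34.9, 49.6 and 58.2 TPM (pigs 31, 33 and 34), below every Group 2 heart, with a log2 fold change of -0.53 (SE 0.29, adjusted p = 0.750 in limma) that ran from -0.69 without pig 34 to -0.33 without pig 31. In Group 1 pigs 27 and 28 (44.5 and 54.5 TPM) were below and pig 30 (75.4 TPM) above all Group 2 hearts. In Group 1 against Group 2 the log2 fold change was -0.25 (SE 0.29), from -0.45 without pig 30 to -0.076 without pig 27.

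SLC25A25 and SLC25A24 exchange ATP-magnesium for phosphate under the control of calcium. SLC25A25 was at 40.4, 37.2 and 22.1 TPM in Group 2, 44.0, 35.7 and 29.0 in Group 1 and 33.1, 35.3 and 52.6 in Group 3. The groups overlapped, with a log2 fold change of 0.29 (SE 0.32) in Group 3 against Group 2 that ran from 0.027 without pig 29 to 0.45 without pig 24. SLC25A24 was at 4.98, 8.67 and 7.71 TPM in Group 2, 4.46, 4.93 and 8.94 in Group 1 and 4.58, 7.92 and 9.26 in Group 3, and the ranges of the 3 groups nearly coincide.

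Of the 4 tested carriers of aspartate, glutamate and citrate, 3 were lower in Group 1 and 3 were lower in Group 3, each against Group 2. SLC25A22 admits glutamate to the matrix. It was at 13.8, 12.6 and 7.14 TPM in pigs 24, 25 and 29. It was at 3.79, 6.78 and 11.1 TPM in pigs 27, 28 and 30 and at 4.92, 8.28 and 5.17 TPM in pigs 31, 33 and 34. Pig 29 lay among the hearts of the other groups, so that no comparison was free of overlap. The log2 fold changes against Group 2 were -0.62 (SE 0.39, adjusted p = 0.993 in limma) in Group 1 and -0.76 (SE 0.39, adjusted p = 0.732) in Group 3, the second being the largest negative value of the family. The first ran from -0.95 without pig 30 to -0.28 without pig 27.

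SLC25A12 and SLC25A13, known as aralar and citrin, are the 2 aspartate-glutamate carriers of the malate-aspartate shuttle. SLC25A12, the form of heart, muscle and brain, was at 18.2, 26.2 and 22.8 TPM in Group 2, 19.9, 18.2 and 34.4 in Group 1 and 25.5, 20.7 and 30.5 in Group 3. Its log2 fold changes against Group 2 were 0.07 (SE 0.31) and 0.18 (SE 0.31), and both changed sign with array weights (-0.19 and -0.0029), the first also without pig 24 or 30 (-0.07 and -0.21). The second ran from 0.045 without pig 24 to 0.32 without pig 33. SLC25A13 was at 4.72, 4.67 and 5.12 TPM in Group 2, 2.23, 3.16 and 4.81 in Group 1 and 2.48, 3.28 and 5.07 in Group 3. In both of the other groups 2 hearts lay under the narrow Group 2 range and 1 lay within it, with log2 fold changes of -0.45 (SE 0.33) and -0.38 (SE 0.33). The former ran from -0.67 without pig 30 to -0.25 without pig 27, and the latter from -0.60 without pig 34 to -0.20 without pig 31. SLC25A1, the citrate carrier, was at 3.02 to 9.04, 4.06 to 9.36 and 4.82 to 5.67 TPM in Groups 2, 1 and 3.

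Of the 6 tested carriers of acylcarnitines, amino acids and S-adenosylmethionine, 3 were higher and 3 lower in each of the comparisons with Group 2. SLC25A20 passes acylcarnitines into the matrix in exchange for carnitine, between the steps of CPT1 and CPT2. In pigs 24, 25 and 29 of Group 2 it was at 5.57, 11.3 and 7.99 TPM. In pigs 31, 33 and 34 of Group 3 it was at 12.8, 14.0 and 21.8 TPM, above every Group 2 heart. In Group 1 it was at 8.02, 10.8 and 22.5 TPM in pigs 27, 28 and 30, so that 2 hearts lay within the Group 2 range and pig 30 at the top. The mean was 16.2 ± 4.90 TPM in Group 3 against 8.29 ± 2.88 in Group 2 (SD, n = 3).

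The log2 fold change of SLC25A20 in Group 3 against Group 2 was 0.90 (SE 0.39, 95% interval 0.06 to 1.74, adjusted p = 0.666 in limma, unadjusted p = 0.0378), the largest positive value of the family. It was 0.60 (SE 0.39) in Group 1 against Group 2 and -0.30 (SE 0.39) in Group 1 against Group 3. With 1 heart left out the former ran from 0.20 (without pig 30) to 0.89 (without pig 27) and the latter from -0.70 (without pig 30) to -0.0050 (without pig 27). The unadjusted p of SLC25A20 in Group 3 against Group 2 rose above 0.05 when pig 24, 29, 33 or 34 was left out, with log2 fold changes of 0.67, 0.90, 0.98 and 0.68, and without the filter on low values (unadjusted p = 0.0501 in limma).

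**Figure D4:**
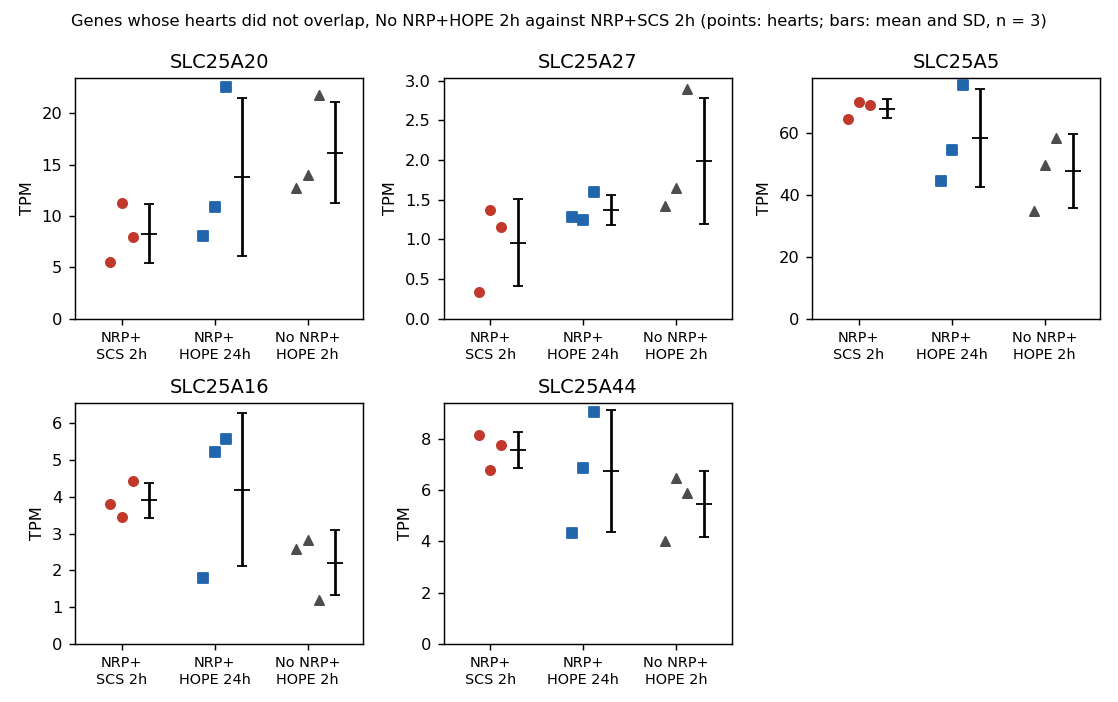
TPM in each heart of the 5 SLC25A genes whose hearts did not overlap in Group 3 against Group 2, with the mean and SD of 3 hearts beside the points. SLC25A20 and SLC25A27 are higher, and SLC25A5, SLC25A16 and SLC25A44 lower, in every No NRP + HOPE 2 h heart than in any NRP + SCS 2 h heart.

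SLC25A44 carries branched-chain amino acids. It was at 8.17, 6.79 and 7.76 TPM in pigs 24, 25 and 29 and at 4.002, 6.48 and 5.89 TPM in pigs 31, 33 and 34, without overlap (log2 fold change -0.43, SE 0.32, adjusted p = 0.845 in limma). The value ran from -0.54 without pig 33 to -0.25 without pig 31. The Group 1 hearts spanned both, at 4.31, 6.89 and 9.07 TPM. SLC25A38, which brings in glycine for haem synthesis, was at 2.47, 2.03 and 4.11 TPM in Group 1, 3.00, 3.99 and 6.90 in Group 3 and 4.34, 3.81 and 2.76 in Group 2. Its log2 fold change in Group 1 was -0.52 (SE 0.35) against Group 3, from -0.74 without pig 30 to -0.24 without pig 34, and -0.28 (SE 0.35) against Group 2, from -0.50 without pig 30 to -0.12 without pig 28.

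SLC25A15, the ornithine carrier, was at 3.53, 3.61 and 2.16 TPM in Group 2, 2.604, 2.72 and 4.66 in Group 1 and 2.45, 2.89 and 1.84 in Group 3. Pig 30 was the highest heart and pig 34 the lowest, and the log2 fold change was 0.33 (SE 0.33) in Group 1 against Group 3, from 0.12 without pig 30 to 0.45 without pig 27. SLC25A26, which brings in S-adenosylmethionine, was among the steadiest members, at 3.79 to 7.24 TPM. SLC25A29 was at 31.3, 21.95 and 20.2 TPM in Group 2, 20.2, 15.98 and 25.4 in Group 1 and 22.1, 24.9 and 24.7 in Group 3. Its range of 1.96-fold between the highest and the lowest heart was among the smallest of the family.

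Of the 6 tested carriers of cofactors and glutathione, 4 were lower in Group 1 and 4 were lower in Group 3, each against Group 2.

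SLC25A16, a carrier linked to coenzyme A, was at 3.81, 3.46 and 4.42 TPM in Group 2 and at 2.59, 2.83 and 1.19 TPM in Group 3, without overlap (log2 fold change -0.65, SE 0.38, adjusted p = 0.795 in limma). The value ran from -0.80 without pig 33 to -0.40 without pig 34. In Group 1 pig 27 was at 1.79 TPM and pigs 28 and 30 were at 5.23 and 5.57 TPM, on either side of Group 2. Under median-of-ratios scaling the hearts of Groups 2 and 3 overlapped for SLC25A16. Against Group 3 the Group 1 value was 0.64 (SE 0.38), from 0.39 without pig 34 to 1.04 without pig 27. SLC25A32, which carries folate and riboflavin cofactors, was at 3.97, 13.3 and 9.06 TPM in Group 1 and 2.70, 5.95 and 7.72 in Group 3 (log2 fold change 0.56, SE 0.42), and at 6.89, 5.97 and 6.96 TPM in Group 2. This fold change ran from 0.20 without pig 31 to 0.98 without pig 27.

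SLC25A39 and SLC25A40 take glutathione into mitochondria. SLC25A39 was at 52.8, 48.5 and 45.1 TPM in Group 2, 28.6, 36.1 and 57.1 in Group 1 and 26.2, 50.9 and 30.8 in Group 3. In each of Groups 1 and 3, 2 hearts lay below all of Group 2 and 1 did not, with log2 fold changes of -0.31 (SE 0.33) and -0.48 (SE 0.33). The former ran from -0.59 without pig 30 to -0.098 without pig 27, and the latter from -0.76 without pig 33 to -0.29 without pig 31. SLC25A40 was at 0.836, 2.39 and 2.69 TPM in Group 2, 1.23, 2.18 and 1.21 in Group 1 and 2.51, 1.77 and 3.39 in Group 3. Its log2 fold changes were 0.30 (SE 0.36) in Group 3 against Group 2, which became -0.02 without pig 24, and -0.48 (SE 0.36) in Group 1 against Group 3, from -0.66 without pig 28 to -0.32 without pig 34.

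SLC25A17, the peroxisomal member, was at 12.1, 9.10 and 6.04 TPM in Group 2, 5.20, 9.91 and 7.73 in Group 1 and 8.87, 10.5 and 8.44 in Group 3. All Group 3 hearts lay within the Group 2 range, and the log2 fold change of Group 1 against Group 3 was -0.28 (SE 0.33), from -0.47 without pig 28 to -0.067 without pig 27.

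Of the 4 tested members that resemble uncoupling proteins or are less characterised, 3 were higher in Group 1 and 2 in Group 3, each against Group 2. SLC25A27, also called UCP4 and best known from brain, was at 0.336, 1.37 and 1.16 TPM in Group 2 and at 1.42, 1.65 and 2.90 TPM in Group 3, without overlap (log2 fold change 0.62, SE 0.35, adjusted p = 0.756 in limma). Group 1 was at 1.28, 1.24 and 1.59 TPM, the first pair within the Group 2 range and pig 30 within that of Group 3 (0.32 against Group 2 and -0.31 against Group 3, SE 0.35 each). With 1 heart left out, the value of Group 3 against Group 2 ran from 0.37 (without pig 24) to 0.78 (without pig 25). That of Group 1 against Group 2 ran from 0.066 to 0.48 without the same hearts, and that against Group 3 from -0.44 (without pig 31) to -0.098 (without pig 34). The gap between pig 25 of Group 2 and pig 31 of Group 3, the closest hearts of the first comparison, was that between 1.37 and 1.42 TPM. These levels are close to the filter of 1 TPM.

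SLC25A47 was at 8.15, 2.84 and 2.43 TPM in Group 2, 4.90, 5.91 and 10.3 in Group 1 and 5.49, 5.46 and 5.44 in Group 3. Pig 24 was above and pigs 25 and 29 were below the narrow Group 3. The log2 fold changes against Group 2 were 0.64 (SE 0.39) and 0.39 (SE 0.39), and without pig 24 they were 1.09 and 0.83. The former was lowest without pig 30 (0.37) and the latter without pig 29 (0.12). SLC25A46, which takes part in mitochondrial fission and lipid transfer, was at 5.50, 4.43 and 4.66 TPM in Group 2, 3.91, 2.16 and 6.25 in Group 1 and 4.26, 3.83 and 5.38 in Group 3. Pigs 27 and 28 were below and pig 30 was above all Group 2 hearts, and the log2 fold change of Group 1 against Group 2, -0.28 (SE 0.34), turned to 0.03 without pig 28 and was -0.57 without pig 30. SLC25A43, whose substrate is not established, was at 2.10 to 5.05 TPM.

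In RefSeq's annotation of Sscrofa11.1, SLC25A29 and SLC25A47 are adjacent protein-coding genes, and so are SLC25A43 and SLC25A5. Pig 24 had the highest SLC25A29 of the 9 hearts (31.3 TPM) and the highest SLC25A47 of Group 2 (8.15 TPM). Whether the counting used strand is not given in the sources used here, and reads shared by overlapping neighbours cannot be told apart from these values. By the study's methods only unique reads in exons were counted. How many reads of near-identical copies, such as ADP/ATP carrier paralogs, were lost in this way is not known here.

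A ratio of 2 genes within a heart does not depend on how that heart was scaled, and 4 pairs of tested paralogs were compared in this way after the levels had been seen. The ratio of SLC25A4 to SLC25A5, heart form over general form, was 25.97, 30.1 and 23.9 in pigs 24, 25 and 29. It was 33.5, 22.9 and 35.8 in pigs 27, 28 and 30 and 46.2, 36.4 and 41.5 in pigs 31, 33 and 34. Each Group 3 heart thus had a higher ratio than the other 6, although the nearest hearts, pig 33 (36.4) and pig 30 (35.8), were close. The ratio was 1.55-fold higher in Group 3 than in Group 2, and Group 1 had 0.733-fold the ratio of Group 3 (exact two-sided permutation test, p = 0.1 each, the smallest that 3 hearts against 3 allow, and p = 0.3 adjusted over 12 tests). Neither difference passed the test.

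The ratio of SLC25A12 to SLC25A13 was 3.85, 5.61 and 4.45 in pigs 24, 25 and 29. It was 8.93, 5.76 and 7.16 in pigs 27, 28 and 30 and 10.3, 6.31 and 6.03 in pigs 31, 33 and 34. All 6 hearts stored by HOPE stood above the 3 hearts stored by SCS, although the nearest hearts (5.61 and 5.76) were close. The ratio was 1.56-fold higher in Group 1 and 1.60-fold higher in Group 3 than in Group 2 (exact permutation test, p = 0.1 each, adjusted p = 0.3), and 0.981-fold in Group 1 against Group 3 (p = 0.9). These 2 folds share the Group 2 hearts.

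**Figure D5:**
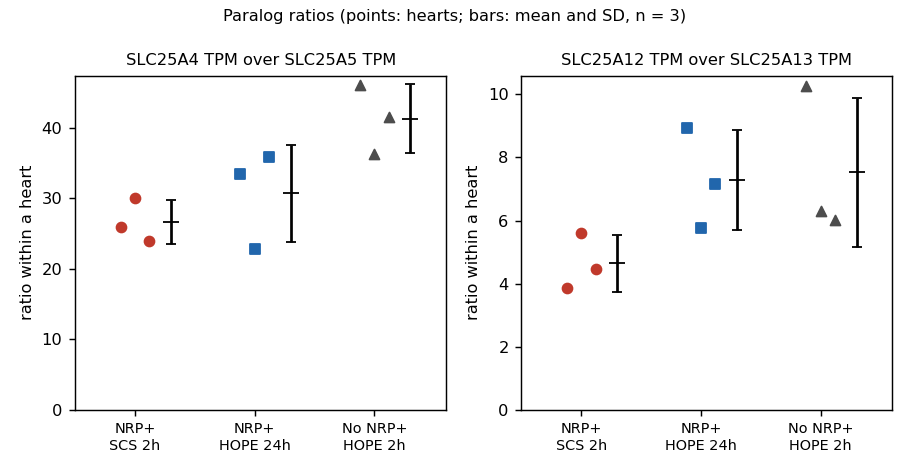
Ratio of SLC25A4 TPM to SLC25A5 TPM (left) and of SLC25A12 TPM to SLC25A13 TPM (right) in each heart, with the mean and SD of 3 hearts beside the points. The No NRP + HOPE 2 h hearts have the 3 highest SLC25A4 to SLC25A5 ratios (36.4 to 46.2), and the NRP + SCS 2 h hearts the 3 lowest SLC25A12 to SLC25A13 ratios (3.85 to 5.61).

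The groups overlapped for the other pairs. The ratio of SLC25A39 to SLC25A40 ran from 9.08 in pig 34 to 63.2 in pig 24, and that of SLC25A25 to SLC25A24 from 2.87 in pig 29 to 9.86 in pig 27. In neither pair was p below 0.3 (exact permutation test).

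Lists of related genes were written from general knowledge. Of the proteins of the same family under other symbols, UCP2 was at 4.19 to 8.79 TPM in Group 2, 4.87 to 17.1 in Group 1 and 8.13 to 10.1 in Group 3, and MTCH1 was at 48.6 to 55.8, 36.9 to 74.2 and 49.2 to 81.9 TPM. UCP3 was below the filter. None of the 3 tested genes of the malate-aspartate shuttle enzymes and none of the 3 of the carnitine shuttle enzymes passed at an unadjusted p under 0.05. CPT1B, the muscle form of the enzyme before SLC25A20, was listed at 0 in all hearts, so its level is not interpreted.

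Of the 11 tested genes of the import machinery for carriers, 1 passed at an unadjusted p under 0.05 in 1 of the 3 comparisons, Group 3 against Group 2, near the share of all genes (background 7.22%). TOMM40, the outer membrane import pore, was at 55.6, 53.0 and 50.7 TPM in Group 2 and 33.1, 38.1 and 23.6 TPM in Group 3, without overlap (log2 fold change -0.76, SE 0.30, adjusted p = 0.607 in limma). In Group 1 it was at 29.3, 36.7 and 55.0 TPM. Of the 3 tested outer membrane channels and pore regulators, PPIF (cyclophilin D, a regulator of the permeability transition pore) passed in the same comparison. It was at 10.8, 12.3 and 8.50 TPM in Group 2 and 20.9, 13.4 and 19.6 TPM in Group 3 (0.71, SE 0.32, adjusted p = 0.684 in limma).

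Of 13 tested pyruvate, calcium and other inner membrane transporters, 1 passed at an unadjusted p under 0.05 in each of the 2 comparisons with Group 2, near the shares of all genes (background 4.97% and 7.22%). SFXN1, a serine transporter of the inner membrane from another family, was at 4.11, 3.30 and 3.75 TPM in Group 2, above the 0.811, 2.39 and 2.08 TPM of Group 1 and the 1.14, 1.70 and 1.86 TPM of Group 3. The log2 fold changes were -0.82 (SE 0.33, adjusted p = 0.943 in limma, and -0.54 without pig 27) and -0.89 (SE 0.33, adjusted p = 0.583). The 7 tested transcriptional regulators of mitochondrial genes and the 4 iron-sulfur and haem genes held none at an unadjusted p under 0.05, and PPARGC1A was listed at 0 in all hearts.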

How the data were processed

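Per the submitters' processing notes and the methods of the study, mRNA was enriched with oligo(dT), sequenced in paired ends, trimmed (Trimmomatic 0.36) and mapped with STAR 2.5.2b. Unique reads in exons were counted with featureCounts (Subread 1.5.2). The authors deposited TPM values, which sum to the same total in each heart. The genome build, the gene lengths and the strand setting are not given in the sources used here, so no coordinates are printed. TPM keep no depth, and no counting interval or detection floor is given. A further 9 columns could not be tied to a sample and were not used here. No comparison columns of the authors were used.

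Hearts were grouped by the pig number in the labels. Two-sided tests were made on the genes at 1 TPM or more in 3 or more hearts, on log2(TPM + 1) with limma 3.58.1 (R 4.3.3; eBayes with trend; all 9 hearts in 1 fit; Benjamini-Hochberg adjustment over all 11782 genes). A fold change on this scale understates the change of low genes. Limma's p-values rest on 1 spread per gene, pooled within groups over the 9 hearts (3 pigs per group) and moderated across genes. Each comparison thus also draws on the hearts of the group not compared. The authors' DESeq2 test needs counts and was not run. The fit was also run on simulated data with independent noise for each gene and heart and with changes larger than those of the family. Shifts shared by a whole heart were not simulated, so the run does not show the power for these genes. Ratios were compared by exact permutation tests in Python 3.11.15. Symbols of 30 of 32 members matched the reference gene names by identifier, and those of SLC25A29 and SLC25A2 did not.

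The members, role lists, related lists and alternatives were chosen with earlier results of these data known. Values in every heart were given for the 8 members with the highest mean, the 5 largest fold changes in each direction of each comparison, members at an unadjusted p under 0.05, paralogs fixed as groups, and related genes at an unadjusted p under 0.05. The 2 largest changes of each related list, also in the rule, are not printed. Other members are given by range, and the values of 1 tested member, counted in all totals, are not reported here or drawn. Alternatives were array weights (statmod 1.5.0), eBayes without trend, a fit of the 6 hearts compared alone, no mitochondrially encoded genes, quantile normalization, median-of-ratios scaling, a mean of at least 5 TPM, no filter, a pseudocount of 0.1 and 1 heart left out at a time. The ratios, and the counts of genes without overlap on other scales, were added after seeing the data.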

Additional observations from a re-analysis of the deposited data

How the results depend on the processing

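No SLC25A gene reached an adjusted p under 0.05 under any of the 18 alternatives, 9 of which left out 1 heart each; the lowest adjusted p over them was 0.298 in Group 1 against Group 2, 0.198 in Group 3 against Group 2 and 0.288 in Group 1 against Group 3. Of 792 alternative values of the named fold changes, 770 kept their direction and 22 did not.

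In Group 1 against Group 2, no member at an unadjusted p under 0.05 became 2 with array weights (SLC25A22, SLC25A46; background 15.4%), 3 under median-of-ratios scaling (SLC25A20, SLC25A3, SLC25A47; 8.54%) and 2 under quantile normalization (SLC25A20, SLC25A47; 8.5%). Leaving out 1 heart gave 0 to 1 (1 without pig 27, 30 or 24), with a background of 3.21% to 10.7%. In Group 3 against Group 2 the 1 member became 4 under median-of-ratios scaling (background 12.4%), 3 under quantile normalization (12.3%) or without the mitochondrially encoded genes (11.6%), 2 with array weights (15.8%) or only the 6 hearts compared (9.18%), and 0 without the filter (6.28%). Leaving out 1 heart gave 0 to 3 (2 without pig 27 or 33, 3 without pig 30 and 0 without pig 34; background 4.12% to 9.43%), and SLC25A20 was replaced by SLC25A47 without pig 24 and by SLC25A22 without pig 29. In Group 1 against Group 3 the 1 member became 0 with a mean of at least 5 TPM (5.97%) and 2 with median-of-ratios scaling (11.7%). With array weights (15.9%) and without pig 30 (9.49%) the count stayed 1 but the call was lost and another member passed, SLC25A38 and SLC25A4 in that order. Leaving out 1 heart gave 0 to 3 (3 without pig 27, and 0 without pig 28, 31 or 34; background 4.12% to 9.49%). The share of all genes thus rose in the settings that gave the highest counts of members. Without overlap were 3 members in Group 1 against Group 2 both without the mitochondrially encoded genes (background 16.1%) and with median-of-ratios scaling (14.6%), and 3 (12.5%) and 4 (16.3%) in Group 1 against Group 3. In Group 3 against Group 2 both settings gave 5 (17.9% and 18.0%). The former held the 5 members printed above, and the latter held SLC25A13 in place of SLC25A16. The cause was not tested.

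The family median moved within -0.23 to 0.08 in Group 1 against Group 2, -0.07 to 0.10 in Group 3 against Group 2 and -0.19 to 0.13 in Group 1 against Group 3. In Group 1 against Group 2 median-of-ratios scaling moved the median of all genes from -0.12 to 0.0003. Signs changed for SLC25A4 (0.079 with median-of-ratios scaling) and SLC25A12 (-0.19 with array weights) in Group 1 against Group 2, for SLC25A3 (-0.018) and SLC25A12 (-0.0029) with array weights in Group 3 against Group 2, and for SLC25A13 (0.0025 with quantile normalization) in Group 1 against Group 3. With 1 heart left out, the values that changed sign ran as follows. In Group 1 against Group 2, SLC25A46 ran from -0.57 to 0.030, SLC25A4 from -0.40 to 0.16 and SLC25A12 from -0.21 to 0.23. In Group 3 against Group 2, SLC25A40 ran from -0.017 to 0.49, SLC25A4 from -0.075 to 0.22 and SLC25A3 from -0.089 to 0.24. In Group 1 against Group 3, SLC25A3 ran from -0.064 to 0.57, SLC25A4 from -0.49 to 0.067, SLC25A12 from -0.39 to 0.053 and SLC25A13 from -0.29 to 0.15. The log2 ratio of SLC25A12 to SLC25A13 in Group 1 against Group 3 ran from -0.19 to 0.22, that of SLC25A39 to SLC25A40 in Group 1 against Group 2 from -0.50 to 0.51, and that of SLC25A25 to SLC25A24 from -0.055 to 0.69 in Group 3 against Group 2 and from -0.23 to 0.57 in Group 1 against Group 3. The log2 ratio of SLC25A4 to SLC25A5 ran from 0.55 to 0.72 in Group 3 against Group 2 and from -0.57 to -0.25 in Group 1 against Group 3. That of SLC25A12 to SLC25A13 ran from 0.49 to 0.80 and 0.43 to 0.82 in Groups 1 and 3 against Group 2.

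No paired analysis was possible because the groups share no pig number. With 3 hearts per group even the largest log2 difference of the family, 0.90 for SLC25A20, did not pass after adjustment, and depth is unknown.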
